A study of Mus musculus with 4 samples.

Results

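The skeletal muscle lineage genes examined here were 9 genes chosen by name, Myod1, Myf5, Myf6, Myog, Pax3, Pax7, Des, Acta1 and Ckm, out of 18101 protein-coding genes that could be placed in both annotations used. The rule gives the genes by name and uses no measured value, but earlier results of these data were known when they were chosen. They were followed in ATAC-Seq, an assay in which the Tn5 transposase cuts and tags open chromatin, to see whether chromatin of another cell type was open in preparations of rib chondrocytes. A peak was counted at a promoter when its summit lay within 1 kb of the transcription start site (TSS), and at a locus when its summit lay in the gene body or within 50 kb of either end.

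Chondrocytes were prepared from rib cartilage of newborn mice by collagenase digestion, with an initial digestion meant to strip soft tissue, and were cultured briefly. Of the 4 libraries, Cho Rep1 and Cho Rep2 (replicates 1 and 2 of Cho) carry no genotype label, WT is wild type, and the deletion library is E160(delta/delta);E308(delta/delta), homozygous for loss of both E160 and E308, distal elements upstream of the cartilage gene Sox9. The deletion mice came from genome editing of C57BL/6J embryos. The methods speak of biological replicates for ATAC-Seq and describe the WT and deletion mice as littermates. How many animals were pooled for a library is not given in the sources used here. WT and the deletion were single libraries, so no test between genotypes was possible and no p-value is given. A muscle cell present at a low share and weak opening in many cells cannot be told apart in such bulk preparations.

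Skeletal muscle is built by a cascade of transcription factors. Pax3 and Pax7 mark muscle progenitors and satellite cells, Myf5, Myod1 and Myf6 commit cells to the lineage, and Myog drives their differentiation. Des (desmin), Acta1 (skeletal alpha-actin) and Ckm (muscle creatine kinase) are products of differentiated muscle. The myogenic regulatory factors bind E-boxes, with the letters CANNTG, and act with MEF2 and with serum response factor, which binds CArG boxes.

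The libraries differed in depth and in peak number. They held from 76242 intervals (Cho Rep1) to 169591 (deletion), and depth read from the peak background ran from 4628 tags per Mb in WT to 20819 in Cho Rep2. The weakest summit called in WT stood 11.1 times above the library background, against 4.39 times in Cho Rep1, 4.09 times in Cho Rep2 and 6.39 times in the deletion library, so sites below that level were not detectable in WT. As a check of the genotype label, E160 had no overlapping peak in the deletion library and 13.4 in WT (highest fold enrichment). E308 was still overlapped by 1 called peak in the deletion library, at 3.07, against 15.4 in WT. The paper describes the peaks of both elements as not detectable in the deletion. Whether the remaining peak lies inside the deleted bases or at their edge was not tested. Cho Rep1 stood apart. Of the 29 sites at the muscle loci called in all 4 libraries, it had the lowest pileup over background at 26. Of the 24 sites called in 3 libraries, it was the missing library at 21. The Cho Rep1 list also differed in form. Its smallest peak was 200 bp wide, against 94 bp in Cho Rep2, 78 bp in WT and 72 bp in the deletion library. It listed 11573 further summits within intervals, and the other lists 0. Whether this bears on the low pileups and missing sites of Cho Rep1 was not tested.

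The promoters of Myog, Des, Acta1 and Ckm are shown because they carry the sequence features through which muscle genes are known to be switched on. They are the 250 bases upstream of the TSS (RefSeq, GRCm38.p6), printed 5′ to 3′ along the gene's strand, with capitals on CANNTG and on matches to the CArG box. The positions are chr1:134289754-134290003 on the plus strand for Myog, chr1:75360042-75360291 on the plus strand for Des, chr8:123894776-123895025 on the minus strand for Acta1 and chr7:19410844-19411093 on the plus strand for Ckm. RefSeq promoter entries were matched for 6 of the 9 genes, and the others, Myod1, Myf6 and Pax3, are named only.
Myog promoter: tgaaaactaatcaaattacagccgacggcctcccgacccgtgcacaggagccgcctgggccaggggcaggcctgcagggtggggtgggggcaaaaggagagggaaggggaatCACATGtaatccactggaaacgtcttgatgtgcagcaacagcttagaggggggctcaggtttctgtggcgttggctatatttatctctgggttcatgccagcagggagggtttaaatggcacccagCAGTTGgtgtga
Des promoter: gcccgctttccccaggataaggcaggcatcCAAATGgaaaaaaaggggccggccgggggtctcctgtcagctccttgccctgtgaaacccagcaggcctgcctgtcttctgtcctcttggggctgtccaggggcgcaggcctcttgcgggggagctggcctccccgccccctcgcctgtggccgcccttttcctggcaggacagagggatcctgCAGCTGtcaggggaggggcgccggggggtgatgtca
Acta1 promoter: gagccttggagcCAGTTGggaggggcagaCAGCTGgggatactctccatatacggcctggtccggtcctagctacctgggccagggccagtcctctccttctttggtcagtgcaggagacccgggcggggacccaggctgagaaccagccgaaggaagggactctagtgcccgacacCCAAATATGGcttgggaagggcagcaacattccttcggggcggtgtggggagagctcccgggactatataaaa
Ckm promoter: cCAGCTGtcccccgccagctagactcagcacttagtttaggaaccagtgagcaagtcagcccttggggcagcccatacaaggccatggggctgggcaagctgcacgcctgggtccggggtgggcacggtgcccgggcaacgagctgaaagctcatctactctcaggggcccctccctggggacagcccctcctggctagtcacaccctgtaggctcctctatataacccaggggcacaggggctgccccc

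The printed Myog, Des and Acta1 stretches each held 2 E-boxes, and that of Ckm held 1. In Des, Acta1 and Ckm 1 of them read CAGCTG. The Acta1 stretch also held the only CArG match among the 9 members, in a promoter set where 1.28% of 18101 genes had a match. These shares were counted in the 250 bases upstream of each NCBIM37 TSS on both strands. In those windows CANNTG was found for 7 of 9 members against 62.5% of all promoters, and CAGCTG, a form contained in CANNTG, for 5 of 9 against 11.8%. The MEF2 pattern was YTAWWWWTAR, with Y for C or T, W for A or T and R for A or G. A full match was found only for Myf6 among the members (2.91% of all promoters). The printed Myog stretch holds CTATATTTAT, which departs from the pattern only at its last base and was not counted. CATTCC, the letters of the TEAD site, was found only for Acta1 (11.6%). Neither the AP-1 letters TGANTCA (6.02%) nor AACAAT, the letters of Sox sites (8.85%), were found in a member. A match is a description of the sequence and does not show binding.

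Promoter peaks of the muscle genes were few in Cho Rep1, Cho Rep2 and WT, while in the deletion library their share (55.6%) was nearer to that of all genes. That contrast depended on the number of peaks. With only the 76242 strongest peaks of each library, 0 members were called in the deletion library and 0 in Cho Rep2. Cho Rep1 and WT had 1 each, beside 56.1% to 60.2% of all genes over the 4 libraries. The shares given here also do not allow for the CpG class of the promoters, which is taken up below. In Cho Rep1, 1 of 9 genes had a promoter peak (Pax3), where 58.6% of all genes had 1. Cho Rep2 had 3 (Myod1, Pax3 and Des; 64.8% of all genes), WT had 1 (Myod1; 62.0%) and the deletion library had 5 (Myod1, Pax3, Pax7, Des and Acta1; 67.8%). Myf5, Myf6, Myog and Ckm had no promoter peak in any library, a state shared by 28.2% of all genes. By fold enrichment, the called members ranked from percentile 4.68 (Pax3 in Cho Rep1) to 54.4 (Myod1 in the deletion library) in their library. Tied peaks were given their mean rank. None of the 9 had a promoter peak in all 4 libraries, as 52.7% of all genes did. Because no member met that condition, no genes were sought with a pattern like theirs.

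**Figure D1:**
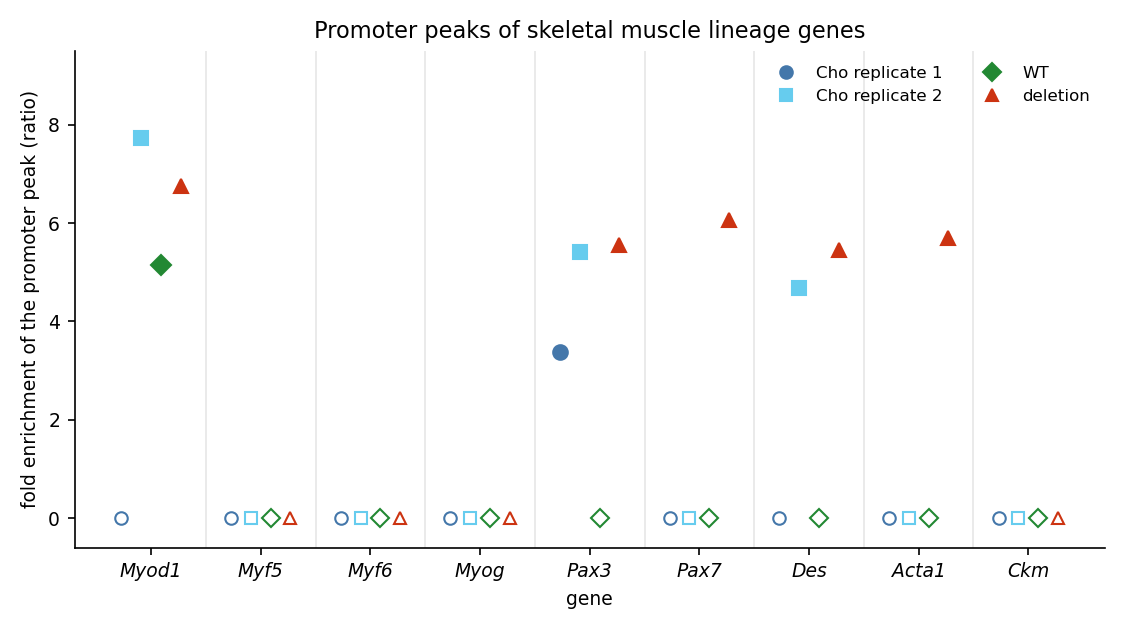
Fold enrichment of the strongest peak with a summit within 1 kb of the TSS (vertical axis, ratio) for each of the 9 genes (horizontal axis) in the 4 libraries. Filled symbols are called peaks, and open symbols on the baseline mark libraries with no promoter peak, not a value of 0. The called values lie between 3.38 and 7.73, and Myf5, Myf6, Myog and Ckm have open symbols only.

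Among the factors that commit cells to muscle, Myod1 was the only gene with a promoter peak in WT. Myod1 lies at chr7:53631844-53634462 on the plus strand (NCBIM37). The peak at its promoter had a fold enrichment, the ratio of the summit pileup to the background with 1 added to both, of 7.73 in Cho Rep2, 5.15 in WT and 6.76 in the deletion library. Cho Rep1 had no peak there, and its nearest summit lay 20.31 kb downstream. The strongest summit there stood 687 bp (Cho Rep2), 714 bp (WT) and 683 bp (deletion) downstream of the TSS, inside an exon of Myod1 and not at the start itself. The pileups behind these values were 22, 6 and 10 tags. A further site lay 2.7 kb downstream of the Myod1 TSS, past the end of the gene, and was called in the same 3 libraries with fold enrichments of 17.5, 8.09 and 7.38.

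Myf5 and Myf6 are neighbours on the minus strand of chromosome 10, at chr10:106919964-106923190 and chr10:106929916-106931785 of NCBIM37, and were treated as 1 locus. Neither had a promoter peak. The nearest Myf5 summits were 1118 bp downstream of the TSS in the deletion library (fold enrichment 3.69) and 1801 bp downstream in Cho Rep2 (6.76). The annotations place the Myf5 TSS differently relative to Myf6, so these distances are not directly comparable. Measured from the Myf6 TSS the summits stood 9.71 kb and 9.6 kb downstream, and they were joined as 1 site. In Cho Rep1 and WT the summit nearest to the Myf5 TSS was the one inside Myf6, 7452 bp and 7588 bp upstream. A further site, 37.8 kb downstream of the Myf6 TSS and beyond Myf5, was the strongest at this locus in Cho Rep1, at 10.1, and was called in the deletion library at 3.07.

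That site in the Myf6 intron was called in all 4 libraries and fell just outside the promoter window. Its summit stood 1143 bp from the Myf6 TSS in Cho Rep1, 1216 bp in Cho Rep2, 1007 bp in WT and 1037 bp in the deletion library. The fold enrichment was 3.38, 5.07, 5.88 and 9.84, in that order. The 101 bases centred on the WT summit (chr10:106930728-106930828, NCBIM37, plus strand) are shown because nearly all of them are a simple repeat.
Myf6 intron site: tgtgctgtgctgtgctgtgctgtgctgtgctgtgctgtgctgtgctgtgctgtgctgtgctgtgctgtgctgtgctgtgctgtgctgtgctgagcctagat

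The printed window held 18 copies of the 5-base unit TGTGC. Within 100 bp on either side of the summit the repeat ran for 110 bp. A tandem repeat of at least 50 bp was present in 0.437% of 73485 distal WT peaks, and in 1 of the 45 at the muscle loci, which was this peak. Whether reads could be placed uniquely there was not tested.

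Myog, at chr1:136186581-136189124 on the plus strand of NCBIM37, had no promoter peak. The nearest summits lay 13025 bp upstream in Cho Rep1, 9204 bp downstream in Cho Rep2, 15791 bp upstream in WT and 1551 bp upstream in the deletion library, so they were not the same site. The deletion summit had a fold enrichment of 4.92 from a pileup of 7 tags.

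Of the progenitor factors, Pax3 had a promoter peak in 3 libraries and Pax7 in 1. Pax3 lies at chr1:78097842-78193709 on the minus strand of NCBIM37. Its promoter fold enrichment was 3.38 in Cho Rep1, 5.41 in Cho Rep2 and 5.56 in the deletion library, with summits from 64 bp upstream to 118 bp downstream of the TSS. The Cho replicates averaged 4.39 ± 1.44 (SD, n = 2), and 6.39 ± 1.8 (SD, n = 2) as pileup over library background. WT had no Pax3 promoter peak, and its nearest summit was 6810 bp upstream. The deletion peak stood 14.4 times above its background from 9 tags. The weakest WT call stood 11.1 times above its background from only 4 tags. Whether the missing WT peak reflects counting error was not tested.

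Pax7, at chr4:139292977-139389445 on the minus strand of NCBIM37, had a promoter peak in the deletion library alone, with a fold enrichment of 6.07 from 10 tags, 643 bp downstream of the TSS and inside an exon. In the other libraries the nearest summits were 35986 bp downstream in Cho Rep1, 11952 bp downstream in Cho Rep2 and 2938 bp upstream in WT.

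Of the products of differentiated muscle, Des and Acta1 had promoter peaks and Ckm had none. Des lies at chr1:75356904-75365154 on the plus strand (NCBIM37). The promoter fold enrichment was 4.67 in Cho Rep2 (136 bp downstream of the TSS) and 5.45 in the deletion library (75 bp downstream), and both libraries had a weaker peak about 0.9 kb upstream, at 3.56 and 4.33. WT had no promoter peak for Des but had a summit 2873 bp upstream, and Cho Rep1 had none nearer than 12824 bp upstream.

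Acta1, at chr8:126415669-126418651 on the minus strand of NCBIM37, had a promoter peak in the deletion library alone. Its fold enrichment was 5.69 from 9 tags, 65 bp upstream of the TSS and next to the CArG match in the printed promoter. The called interval (chr8:126418675-126418768) did not reach the E-boxes, which lie near the upstream end of that promoter. A site 3.2 kb downstream of the Acta1 TSS was called in all libraries but Cho Rep1, at 9.16 in Cho Rep2, 5.62 in WT and 6.62 in the deletion. The nearest Cho Rep1 summit was 6596 bp downstream.

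Ckm, at chr7:19996443-20006932 on the plus strand of NCBIM37, had no promoter peak, yet its nearest site was the same in all 4 libraries. The summits stood 5451, 5502, 5447 and 5443 bp upstream of the TSS in Cho Rep1, Cho Rep2, WT and the deletion library, with fold enrichments of 5.49, 21.8, 8.09 and 11.7. The nearest TSS to this intergenic site was that of Klc3, which encodes a kinesin light chain, at 1543 bp.

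CpG content separates promoters that are open in most tissues from those that are not, so the muscle genes were set beside genes of their own class. A promoter was called CpG-rich when the 1 kb centred on the TSS had at least 50% GC and an observed over expected CpG of at least 0.6. Pax3 (0.669), Pax7 (0.638) and Des (0.702) were CpG-rich by this measure, and the other 6 members lay between 0.151 for Ckm and 0.481 for Myod1. Of 8482 CpG-rich genes, 85.5% had a promoter peak in all 4 libraries and 1.2% in none. The CpG-rich members were called in 3 libraries (Pax3), 1 library (Pax7) and 2 libraries (Des). Of 9619 CpG-poor genes, 51.9% had a promoter peak in none of the libraries and 23.7% in all 4. Among the 6 CpG-poor members 4 were called in none, Acta1 was called in 1 and Myod1 in 3.

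**Figure D2:**
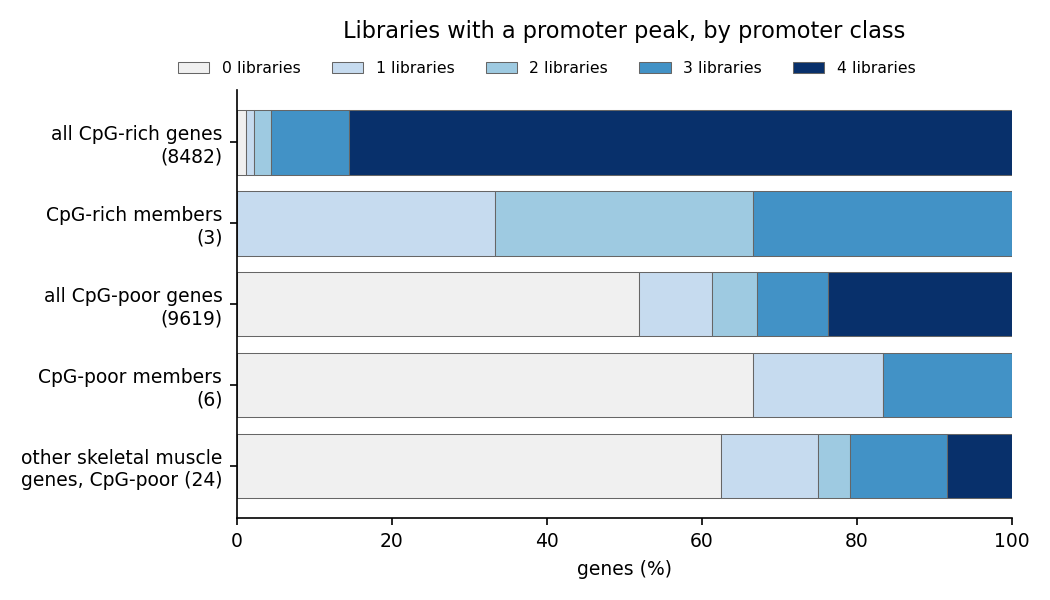
Share of genes (horizontal axis, %) with a promoter peak in 0, 1, 2, 3 or 4 libraries, darker for more libraries, for CpG-rich and CpG-poor genes, the members of each class and the 24 other skeletal muscle genes. All 4 libraries had a promoter peak for 85.5% of CpG-rich genes and for none of the 3 CpG-rich members.

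Other genes of skeletal muscle were read in the same way. Of 24 genes for contractile and membrane proteins of muscle and its endplate, 3 had a promoter peak in Cho Rep1, 7 in Cho Rep2, 5 in WT and 7 in the deletion library. All 24 were CpG-poor, and the counts are 12.5%, 29.2%, 20.8% and 29.2%, beside 28.6%, 41.1%, 32.7% and 41.0% of CpG-poor genes. Of the 24, 15 (62.5%) had none in any library, beside 51.9% of CpG-poor genes and 28.2% of all genes. Among the 15 were the myosin heavy chain genes Myh1, Myh2, Myh3, Myh4 and Myh8 and the genes for titin (Ttn) and nebulin (Neb). Actn3, for the alpha-actinin of fast fibres, and Casq1, for the calcium-binding protein of the sarcoplasmic reticulum, had promoter peaks in all 4 libraries. The fold enrichment at Actn3 was 13.5, 34.6, 17.7 and 18.6 in Cho Rep1, Cho Rep2, WT and the deletion library, above that of every member. At Casq1 it was 9.29, 20.6, 10.3 and 13.9. For the genes of this and the other lists, a TSS of another gene within 1 kb of the peak was not looked for. Such a peak may therefore belong to a neighbouring gene. Tmem8c, also listed, could not be placed.

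Cofactors and upstream regulators of the myogenic factors formed a further list. Of 16 such genes, 11, 12, 14 and 15 had a promoter peak in Cho Rep1, Cho Rep2, WT and the deletion library (68.8%, 75.0%, 87.5% and 93.8%, beside 58.6%, 64.8%, 62.0% and 67.8% of all genes), and 9 had 1 in all 4. Of the 16 genes 11 are CpG-rich, a class in which from 91.7% to 98.1% of genes had a promoter peak in a library, against 28.6% to 41.1% of CpG-poor genes. Among them were Mef2d, Meox2, Met, Msc, Six4, Tcf3 and Tcf12, and 8 of the 9 are CpG-rich. Tcf3 and Tcf12 encode E proteins, the widely expressed partners of the myogenic factors, and the Tcf12 promoter had fold enrichments of 4.22, 12.0, 6.57 and 9.34. Mef2c was the only gene of this list with no promoter peak in any library.

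**Figure D3:**
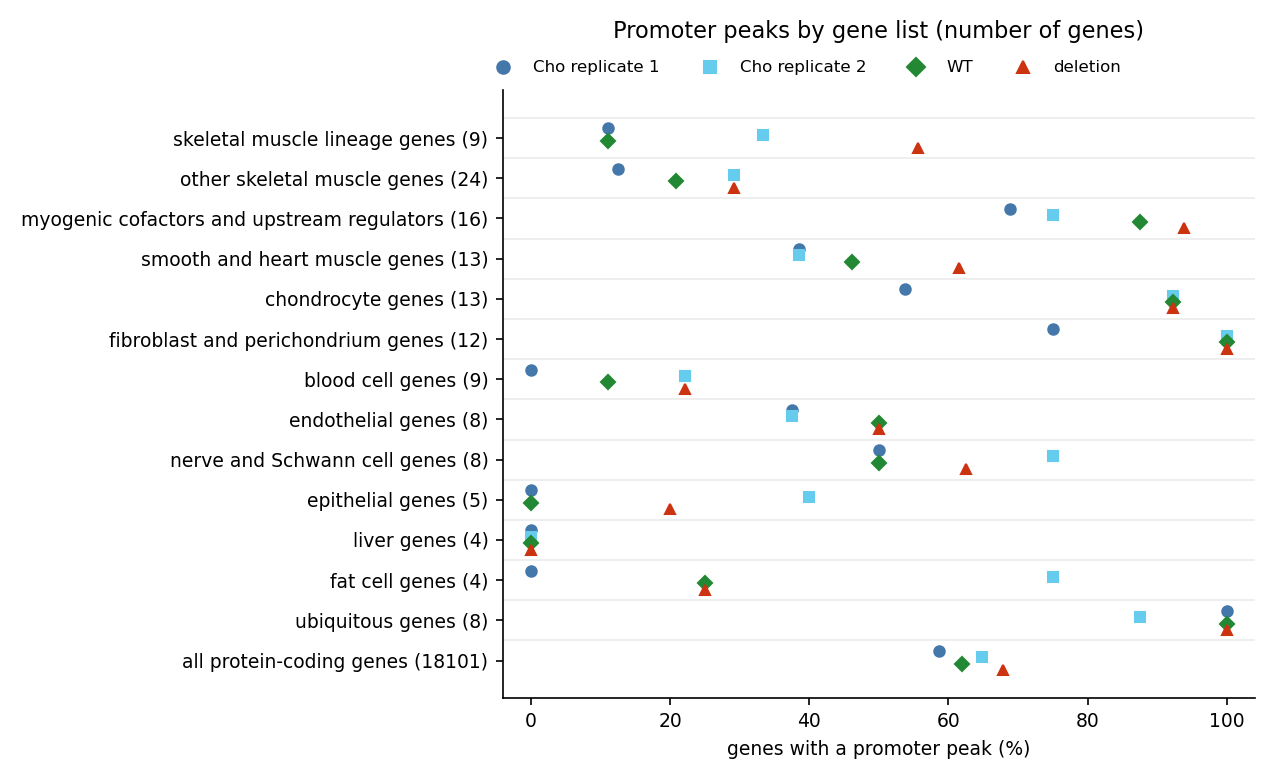
Share of the genes of each list (horizontal axis, %) with a peak within 1 kb of the TSS in each library, with the number of genes in brackets and all 18101 genes in the last row. The muscle lineage genes lie at 11.1% in Cho Rep1 and WT and 55.6% in the deletion library, and the chondrocyte genes lie between 53.8% and 92.3%.

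The rib cartilage label was checked against markers of cartilage and of other cell types. Of 13 chondrocyte genes, 7 had a promoter peak in Cho Rep1 (53.8%, beside 58.6% of all genes). In each other library 12 did (92.3%, beside 64.8%, 62.0% and 67.8% of all genes in Cho Rep2, WT and the deletion library). Sox9 and Col2a1 were among the 7 called in all 4. Acan, Sox5, Col9a1, Col11a2 and Matn1 were not called in Cho Rep1. The fold enrichment at the Col2a1 promoter was 4.65, 5.71, 5.56 and 5.04, within the range of the called members. The 12 fibroblast and perichondrium genes gave 9, 12, 12 and 12 (75.0% in Cho Rep1 and 100% elsewhere), a higher share than the chondrocyte genes in every library. Of 13 genes of smooth and heart muscle, 5, 5, 6 and 8 were called, and Acta2, Cnn1 and Tagln, genes of smooth muscle that fibroblasts also use, were called in all 4, with 22.0, 12.0, 9.36 and 9.01 at Acta2. The heart genes Myh6, Myh7, Nkx2-5 and Tnnt2 were called in none, as was Comp of the chondrocyte genes.

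Blood cell genes gave 0, 2, 1 and 2 of 9, endothelial genes 3, 3, 4 and 4 of 8, and nerve and Schwann cell genes 4, 6, 4 and 5 of 8. Epithelial genes gave 0, 2, 0 and 1 of 5 and liver genes 0 of 4 in each library. Fat cell genes gave 0, 3, 1 and 1 of 4, and ubiquitous genes 8, 7, 8 and 8 of 8. Beside these counts, 58.6%, 64.8%, 62.0% and 67.8% of all genes had a promoter peak, in the same order of libraries. Of CpG-poor genes, 28.6%, 41.1%, 32.7% and 41.0% did. The blood, epithelial and liver lists hold 0 CpG-rich genes, and the muscle lineage list holds 3. Genes called in all 4 libraries included the endothelial Kdr and Tek and the neural Snap25, Syt1 and Tubb3, beside 7 ubiquitous genes. Cdh5, Emcn, Sox17 and Tie1 of endothelium, Neurod1, the epithelial Krt5, Krt14 and Trp63, the liver genes Afp, Alb, Apoa1 and Ttr, and Adipoq of fat cells were called in none. The muscle lineage genes, with 1, 3, 1 and 5 of 9, were called at a lower share than the chondrocyte genes in every library. Cho Rep2 and the deletion library, where most members were called, were also the libraries with most peaks. The part of other cells in these peaks was not tested.

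The windows of 50 kb around the muscle genes held peaks in every library, mostly away from the genes' own promoters. The 8 loci held 40 peaks in Cho Rep1, 90 in Cho Rep2, 57 in WT and 116 in the deletion library. Per 100 kb this was 3.88, 8.73, 5.53 and 11.3, beside medians over all genes of 4.42, 9.03, 5.84 and 10.5. The median fold enrichment of these peaks was 6.12, 8.79, 8.26 and 6.07, beside 6.33, 7.93, 6.86 and 6.25 for all peaks of each library.

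Loci differed among themselves. Peak density at Myf5/Myf6 was the lowest of the 8 loci in Cho Rep2, WT and the deletion library. This locus had 2, 2, 1 and 6 peaks in Cho Rep1, Cho Rep2, WT and the deletion library, and from 13.0% of all genes in WT to 24.0% in the deletion library had a lower density. At Des the counts were 8, 21, 12 and 20, and from 79.1% to 93.8% of genes had a lower density. Ckm had 8, 20, 16 and 22 peaks, at 78.2% to 93.4%. Acta1 (4, 10, 8 and 14 peaks), Myog (2, 9, 5 and 11), Pax3 (10, 11, 6 and 17) and Pax7 (5, 10, 6 and 19) lay between. So did Myod1 (1, 7, 3 and 7), except in Cho Rep1, where it had the lowest density, at 0.974 peaks per 100 kb against 1.79 at Myf5/Myf6. Cho Rep1 had more peaks than WT at Pax3 and Myf5/Myf6 and fewer at the other 6 loci.

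Peaks of the 4 libraries were joined into 122 sites by their distance from the TSS, without converting coordinates. Of these, 29 were called in all 4 libraries, 24 in 3, 28 in 2 and 41 in 1. The 41 comprised 23 seen in the deletion library alone, 13 in Cho Rep2 alone, 4 in Cho Rep1 alone and 1 in WT alone. The deletion library and Cho Rep2 were the deeper libraries of the 4. A site was placed by its WT summit, or by another library where WT had none. On that basis 105 of the 122 sites lay over 1 kb from any protein-coding TSS, and 21 of those 105 were called in all 4 libraries. When every library that called the site was required to place it there, with RefSeq for Cho Rep2, the numbers were 103 and 20.

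**Figure D4:**
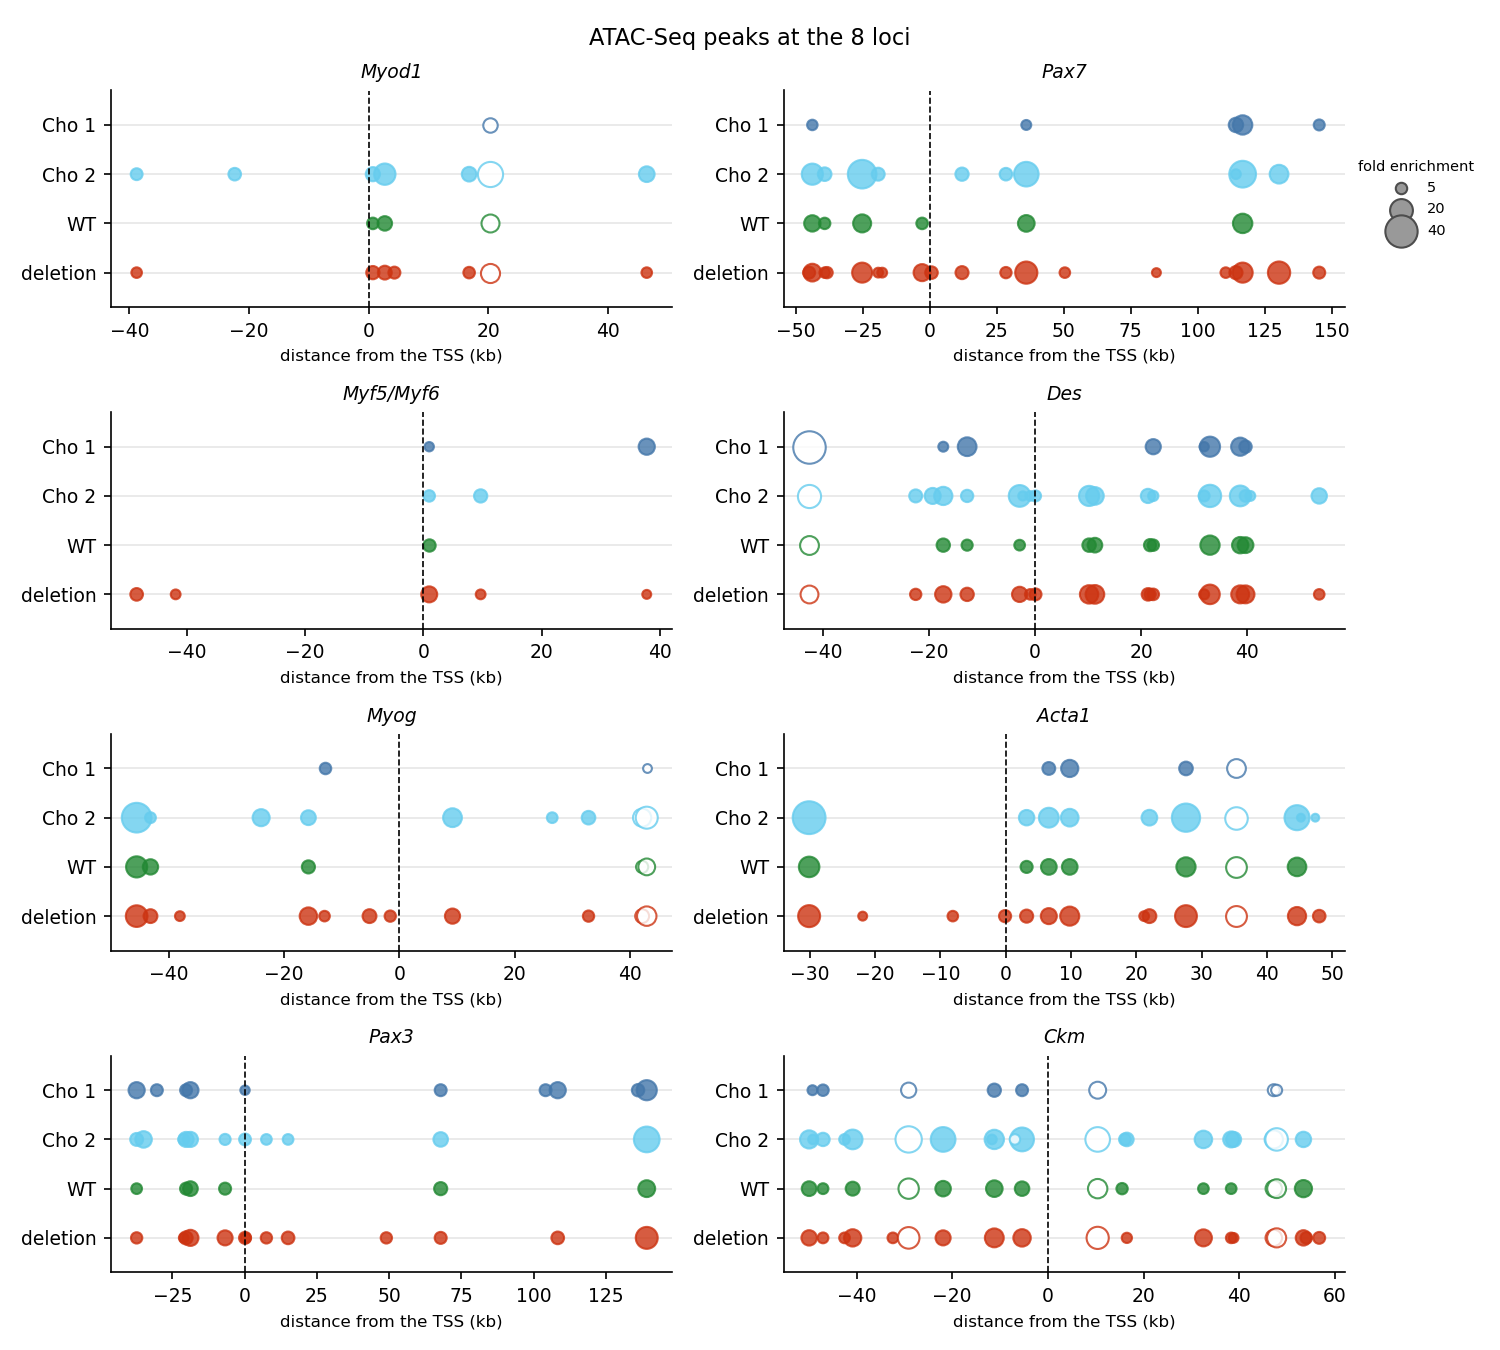
Peaks at the 8 loci by distance from the TSS (horizontal axis, kb, downstream positive; for Myf5/Myf6 from the Myf6 TSS), with a row for each library and circle area in proportion to fold enrichment. Open circles lie within 1 kb of the TSS of another protein-coding gene, and the dashed line is the TSS of the member. Myod1 and Myog have no filled circle shared by all 4 rows.

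At Myod1 and Myog the only sites called in all 4 libraries lay at promoters of other genes of GENCODE. The Myod1 site, 20.3 kb downstream, lay 326 bp from the TSS of the potassium channel gene Kcnc1 and had fold enrichments of 8.02, 24.3, 12.4 and 14.0 in Cho Rep1, Cho Rep2, WT and the deletion library. The Myog site, 42.9 kb downstream, lay 7 bp from the TSS of Ppfia4, which encodes a liprin, with 2.96, 18.6, 10.8 and 14.5. In RefSeq, used for Cho Rep2, no TSS lay within 1 kb of it. The strongest Myog site in 3 libraries was 45.6 kb upstream, between genes, with 33.9 in Cho Rep2, 17.2 in WT and 18.0 in the deletion library, and it was not called in Cho Rep1.

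At Pax3 5 sites were called in all 4 libraries, and none lay at the Pax3 promoter. They stood 37.4, 20.3 and 18.8 kb upstream, 67.8 kb downstream in an intron of Pax3, and 139.1 kb downstream, beyond the gene's end. The site 20.3 kb upstream lay within 1 kb of the TSS of Gm2102 in RefSeq, used for Cho Rep2, and of no TSS in GENCODE. The site at 139.1 kb was the strongest at Pax3 in every library, with 15.6, 25.4, 10.9 and 18.5, while the Pax3 promoter stayed between 3.38 and 5.56 where it was called.

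At Pax7, too, distal sites stood above the promoter. The site 116.8 kb downstream of the TSS, beyond the gene's end, was the strongest in Cho Rep1 and WT, with 14.4, 27.5, 14.5 and 15.5. A site in a Pax7 intron, 36.0 kb downstream of the TSS, had 3.80, 23.3, 10.7 and 18.9, and another lay 43.9 kb upstream, with 4.22, 17.2, 10.3 and 12.1. The site 25.3 kb upstream, called in 3 libraries, reached 31.5 in Cho Rep2, with 12.5 and 15.4 in WT and the deletion library. The strongest Pax7 site of the deletion library, 130.4 kb downstream, had 19.1 there and 13.5 in Cho Rep2, and was not called elsewhere.

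Des had 7 sites called in all 4 libraries. The strongest in Cho Rep1, 42.6 kb upstream at 40.5, lay 137 bp from the TSS of the peptidase gene Dnpep and had 20.6, 13.6 and 12.2 in the other libraries. Sites 22.3, 33.0, 38.7 and 39.7 kb downstream lay in introns of Speg, the gene of a kinase of striated muscle, and those at 17.3 and 12.8 kb upstream lay between genes. The 33.0 kb site had 15.6, 19.2, 14.3 and 14.7, so the Cho replicates averaged 17.4 ± 2.5 (SD, n = 2).

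Acta1 had 4 such sites, all downstream of it. The site at 27.6 kb had 7.18, 30.7, 14.2 and 18.4, those at 6.6 and 9.8 kb ran from 6.33 to 15.1 over both sites and all libraries, and that at 35.2 kb, with 13.5, 19.5, 16.5 and 16.7, lay 671 bp from the TSS of 1700054N08Rik (in Cho Rep2, at Ccsap of RefSeq). In the annotation these sites fall in an intron of Gm20388, a long gene model that spans Acta1. The highest value at any of the 8 loci was 30.1 kb upstream of Acta1, in an intron of Nup133, a nuclear pore gene, with 41.4 in Cho Rep2, 16.2 in WT and 18.6 in the deletion library, and no peak in Cho Rep1.

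Ckm had 7 sites called in all 4 libraries, of which 4 belonged to promoters of other genes, namely Ercc2 (29.1 kb upstream), A930016O22Rik (10.4 kb downstream) and Mark4 (47.2 and 47.8 kb downstream). In RefSeq the sites at 10.4 and 47.2 kb were over 1 kb from any TSS. The Ercc2 site (a DNA repair helicase gene) had 8.87, 26.6, 15.9 and 17.9. The site at 10.4 kb overlapped the last exon of Ckm and lay 39 bp from the TSS of A930016O22Rik, with 11.0, 23.2, 14.4 and 18.9. The remaining sites lay 47.0 kb upstream in an intron of Ppp1r13l, 11.2 kb upstream in an intron of Klc3, and at the site about 5.4 kb upstream described above. Cho Rep2 alone had a peak at the TSS of Klc3, 6.9 kb upstream of Ckm.

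The summits of the strongest distal WT site called in all 4 libraries at Pax3, Pax7, Des, Acta1 and Ckm are shown, since these sites were called in every library, as no promoter of a member was. Each is 101 bases centred on the WT summit, read from the plus strand of NCBIM37, with capitals on the letters TGANTCA, on E-boxes (CANNTG) and on the MEF2 pattern. The positions are chr1:78054593-78054693 (Pax3), chr4:139272578-139272678 (Pax7), chr1:75389805-75389905 (Des), chr8:126391043-126391143 (Acta1) and chr7:19985236-19985336 (Ckm).
Pax3 +139.1 kb: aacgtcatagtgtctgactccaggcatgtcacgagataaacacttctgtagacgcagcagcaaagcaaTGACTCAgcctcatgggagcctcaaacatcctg
Pax7 +116.8 kb: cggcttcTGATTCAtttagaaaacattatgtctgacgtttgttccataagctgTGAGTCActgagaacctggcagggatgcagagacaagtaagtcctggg
Des +33.0 kb: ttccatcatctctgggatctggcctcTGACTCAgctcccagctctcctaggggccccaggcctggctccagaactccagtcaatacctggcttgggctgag
Acta1 +27.6 kb: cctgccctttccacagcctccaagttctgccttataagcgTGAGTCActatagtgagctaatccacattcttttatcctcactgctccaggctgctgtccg
Ckm -11.2 kb: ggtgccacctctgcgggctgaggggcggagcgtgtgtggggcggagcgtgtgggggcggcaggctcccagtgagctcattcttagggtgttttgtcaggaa

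In these windows all capitals are TGANTCA, the letters bound by AP-1 factors. Pax7 had 2 matches, Pax3, Des and Acta1 had 1 each, and Ckm had none. No window held CANNTG or the MEF2 pattern, whose letters therefore are not within 50 bases of these summits. Over 201 bases around each distal WT summit, TGANTCA was present at 9 of 45 peaks of the muscle loci, beside 23.0% of 73485 distal WT peaks. CAGCTG was present at 11 of 45 (24.4%), beside 17.0%, and CANNTG at 34 of 45 (75.6%), beside 66.7%. AACAAT was present at 1 of 45, beside 6.02%. The MEF2 pattern was present at 1 of 45 (2.22%), beside 2.18%.

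WT and the deletion library were then compared at the muscle loci. Of 57 WT peaks, 56 overlapped a deletion peak (98.2%, 95% exact binomial interval 90.6% to 100%), beside 95.9% of all WT peaks. The exception lay at Ckm, chr7:20011872-20011965 in an intron of Mark4, with a fold enrichment of 4.95 from 6 tags. In the other direction, 55 of 116 peaks of the deletion library were matched in WT (47.4%, 38.1% to 56.9%), beside 49.4% of all deletion peaks. The intervals cover counting error only.

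Shared peaks were compared by strength. The median log2 ratio of fold enrichment, deletion over WT, was 0.23 over the 56 peaks (range −0.36 to 1.33), beside 0.28 over 87274 shared peaks of the genome. Measured as pileup over library background, the same medians were −0.04 and −0.01, so the direction was not stable. A log2 ratio above 1 was found for 4 of the 56 peaks, where 7.79% of all shared peaks passed, and a ratio below −1 for 0, where 0.071% passed. The ratios above 1 were 1.33 at Ckm (32.5 kb downstream), 1.27 and 1.02 at Des (32.6 kb downstream and 2.9 kb upstream) and 1.12 at Pax7 (2.9 kb upstream).

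At the Pax7 site 2.9 kb upstream WT had 5.15 from 6 tags and the deletion library 11.2 from 19 tags. As pileup over background the deletion value was 1.83 times that of WT (95% interval 0.701 to 5.59). The corresponding ratio at Ckm was 1.96 (0.694 to 6.8), and at the Des site 2.9 kb upstream 1.85 (0.646 to 6.44). The intervals at these 3 sites cover counting error only and include 1, so a difference was neither shown nor excluded. At the Des site 32.6 kb downstream the ratio was 2.41 (1.23 to 5.16), the only interval of the 56 without 1, but there a WT peak of 11 tags was paired with a broader deletion interval whose summit lay at the 33.0 kb site. At that neighbouring site itself WT had 14.3 and the deletion library 14.7. No muscle locus had a median log2 ratio outside 0.13 to 0.74, the highest being the single shared peak in the Myf6 repeat.

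**Figure D5:**
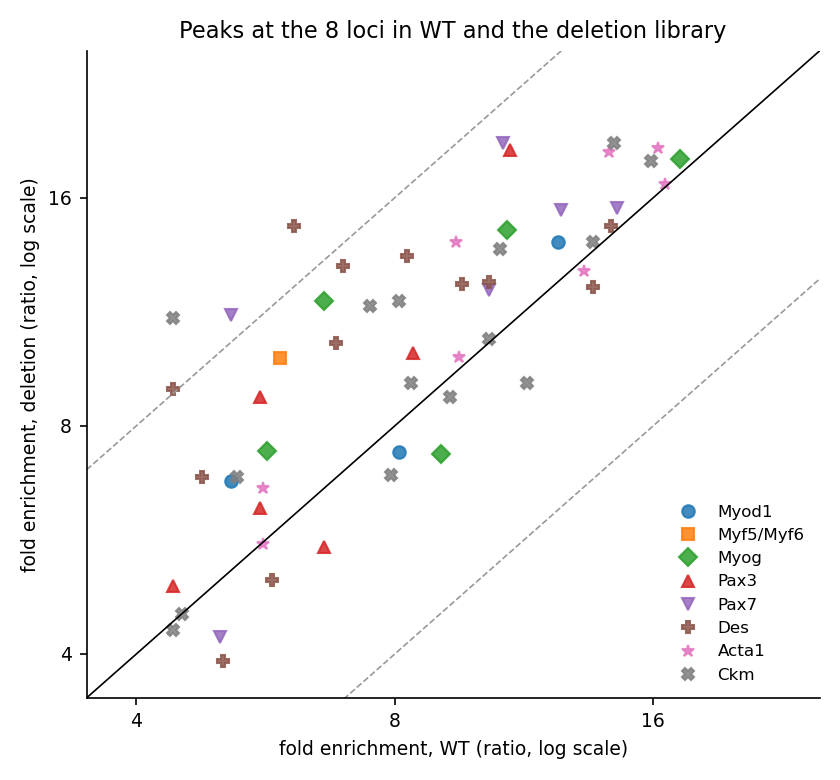
Fold enrichment in WT (horizontal axis) and in the deletion library (vertical axis), both on log scales, of the 56 peaks shared at the 8 loci, with a symbol for each locus. The solid line marks equal values and the dashed lines a log2 ratio of 1 and −1. Points above the upper dashed line number 4, and none lies below the lower one.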

How the data were processed

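ATAC-Seq peak lists of 4 libraries of rib chondrocytes were used, 1 list per library, with groups taken from the labels. Per the methods and the submitters' processing notes, the authors trimmed reads with fastp, aligned them with Bowtie2 2.4.4, removed duplicates with Picard 2.20.7 (the methods give another version) and SAMtools 1.9, and called peaks with MACS2 2.2.4 at a q-value of 0.05. The deposited fold enrichment is a ratio, the deposited p-value and q-value are given as −log10, and the score column, also deposited, holds the −log10 q-value multiplied by 10. These values move with depth and background.

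The members and lists were chosen with earlier results of these data known. Genes were matched by symbol in GENCODE vM1 (NCBIM37, mm9) and RefSeq (GRCm38.p6). The methods name mm9, but Cho Rep2 was read as GRCm38, because 64.8% of promoters then held a peak, against 17.1% with NCBIM37 positions. Only the strongest row of each interval was kept (11573 further summits of Cho Rep1 were dropped). Summit pileups were solved from each peak's ratio and p-value with MACS2's Poisson model, which gave a whole pileup for at least 99.999% of intervals in each library, within a relative tolerance of 0.0002 on the p-value, and this step was tested on simulated data. The most frequent background divided by the smallest peak width gave the depth, from 4628 to 20819 tags per Mb. Peaks overlapped when they shared 1 bp. Shares have exact binomial intervals. A site was put at another promoter when within 1 kb of the TSS of any other protein-coding gene of its annotation (22380 in GENCODE, 21099 in RefSeq).

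Named were the 9 members, the strongest peak of each library at each locus, sites called in all 4 libraries, neighbours with a peak at their TSS, and genes of other lists called in every library or in none where 5 or fewer. Some list genes are counted but not reported by name here. Chosen after their values were seen were myosins, Ttn, Neb, the cofactors, the chondrocyte genes except Comp and sites called in 2 or 3 libraries. So were the tandem repeat search and the use of every annotated gene for neighbouring promoters. Alternatives covered the promoter window, q-value, start sites, equal peak numbers, flank, other measures and leaving out each Cho replicate. Python 3.11.15, numpy 2.4.6, pandas 2.3.3, scipy 1.17.1 and matplotlib 3.10.9 were used.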

Additional observations from a re-analysis of the deposited data

How the results depend on the processing

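The counts of promoter peaks at the muscle genes depended on the window, the threshold and the number of peaks. With summits within 2 kb of the TSS, 2 members were called in Cho Rep1, 5 in Cho Rep2, 2 in WT and 8 in the deletion library, beside 61.8%, 70.4%, 65.4% and 71.8% of all genes. With q below 1e-5, 0 were called in Cho Rep1 and 0 in WT, while Cho Rep2 had 3 and the deletion library 5 as before, beside 52.6%, 59.0%, 63.8% and 64.6% of all genes in that order. With the 76242 strongest peaks of each library, 0 were called in Cho Rep2 and 0 in the deletion library, beside 56.1% and 58.6% of all genes. Cho Rep1 and WT kept 1 each, beside 58.6% and 60.2%. The 5 of the deletion library were therefore weaker peaks of a long list. Start sites of any annotated transcript changed no count.

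Peaks at the loci with a flank of 10 kb numbered 9, 27, 16 and 38 in Cho Rep1, Cho Rep2, WT and the deletion library. With q below 1e-5 the deletion library had 76, and with equal peak numbers Cho Rep2 had 51 and the deletion library 48. The share of WT peaks found in the deletion library was 82.4% with equal peak numbers and 100% with q below 1e-5 in both. The median log2 ratio turned to −0.04 as pileup over background, and was 0.72 as −log10 q-value and 0.26 without peaks at promoters of other genes. The mean at the Pax3 promoter ran from 3.38 to 5.41 when either Cho replicate was left out, and was 6.39 as pileup over background. The cause of these shifts was not tested, except that fewer peaks or a narrower window remove peaks by construction. Of 41 alternatives for the results on the members and their loci, 20 were classed as the same, 20 as moved and 1 as reversed. Of 96 alternatives for counts of the other gene lists, 78 stayed within 1.5 times the reported count. No paired analysis was possible because each genotype was a single library and the Cho replicates form 1 group.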
